A study of Drosophila melanogaster with 7 samples.

Results

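Nuclear RNA of octopaminergic neurons was compared with nuclear RNA of neurons at large in heads of adult Drosophila melanogaster. The comparison set the 2 libraries of nuclei tagged by Tdc2-GAL4, called Tdc2 a and Tdc2 b here, against the 1 library of nuclei tagged by R57C10-GAL4, which is 3 of the 6 libraries in the table. All 15551 fly genes of the table entered, and 9585 of them reached at least 1 FPKM (fragments mapped to a gene, scaled by transcript length and by library size) in at least 2 of the 5 tagged-nuclei libraries and were tested. The labels list 2 R57C10 samples, and 1 R57C10 column is in the table.

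In every tagged group a GAL4 line drove unc84-GFP, a nuclear envelope protein fused to green fluorescent protein, so that tagged nuclei could be pulled from homogenates of frozen heads on antibody-coated beads. R57C10 was described as acting in all mature neurons, Tdc2-GAL4 as acting mainly in octopaminergic neurons, and OK107-GAL4 as acting mainly in Kenyon cells, which form the mushroom body. The 2 OK107 libraries entered the fit only to estimate the spread between libraries, and 1 library of whole dissected brain, not of tagged nuclei, served as a reference level. Age, sex and genetic background of the flies were not given in the sources used here, and a single GAL4 line stood for each cell group. The labels name heads as the source of nuclei, whereas the column headings say brain.

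Octopamine is the invertebrate counterpart of noradrenaline, and its neurons act on arousal, flight, aggression, feeding and appetitive memory. Tyrosine decarboxylase, encoded by Tdc2 in neurons, makes tyramine, and tyramine beta-hydroxylase, encoded by Tbh, turns tyramine into octopamine. The vesicular monoamine transporter, Vmat, loads the amine into vesicles, and G-protein-coupled receptors of several classes receive it. The neurons are few, with broad arbors, and some of them also carry the vesicular glutamate transporter.

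The Tdc2 libraries were less alike than the OK107 libraries. The SD of the log2(FPKM + 1) difference between libraries of a pair was 0.39 for Tdc2 and 0.18 for OK107, over the tested genes. Of those genes 175 were at least 2-fold apart between Tdc2 a and Tdc2 b, with 135 higher in b and 40 higher in a. Read totals are unknown. From the steps between low FPKM values, relative depth against R57C10 was 0.634 for Tdc2 a and 1.02 for Tdc2 b. The column headings carry 2 date tags, the earlier for Tdc2 a and both OK107 libraries and the later for Tdc2 b, R57C10 and whole brain. No spike-in RNA was detected in Tdc2 a, and 65 and 60 spike-in species were detected in Tdc2 b and R57C10. R57C10 has no replicate here, so its spread was taken to be that of the other tagged-nuclei groups. Nothing states that libraries of a pair came from separate flies, so p-values measure only the spread between these samples.

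The genes that check the Tdc2 label were far above R57C10 in both Tdc2 libraries. Tbh stood at 1668 FPKM in Tdc2 a and 2159 FPKM in Tdc2 b, against 37.1 FPKM in R57C10, 16.6 and 16.9 FPKM in OK107 and 38.3 FPKM in whole brain. Tdc2 stood at 110.1 and 90.3 FPKM against 3.01 FPKM in R57C10. Both Tdc2 libraries lay far above the other 4 libraries for either gene. The difference was 5.64 for Tbh (SE 0.18, adjusted p = 0.00099) and 4.65 for Tdc2 (SE 0.17, adjusted p = 0.00099), on the log2(FPKM + 1) scale with limma. Vmat had no value in either Tdc2 library, and stood at 344 FPKM in R57C10. Tdc1, the other tyrosine decarboxylase gene, stood at 4.29 and 7.85 FPKM against 3.76 FPKM in R57C10, and did not pass the test. Pan-neuronal genes were present at high levels: n-syb, a synaptic vesicle fusion protein gene, stood at 1541 and 1279 FPKM against 1096 FPKM, and did not pass. For elav, an RNA-binding protein gene of all neurons, the levels were 170 and 153 FPKM against 277 FPKM, lower by a log2 difference of -0.78 (SE 0.12). Summed over 20 pan-neuronal and synaptic genes, the level was 13183 and 12483 FPKM in Tdc2 and 12864 FPKM in R57C10. The complexin gene cpx alone gave 3692 and 3134 FPKM of the Tdc2 sums and 2266 FPKM of the R57C10 sum. Of the 22 listed genes, 9 were above R57C10 in both Tdc2 libraries and 11 were below it in both.

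Across the tested genes 1979 were higher in Tdc2 nuclei and 1458 were lower, which is 20.6% and 15.2% of the 9585 genes tested, at a Benjamini-Hochberg adjusted p under 0.05. The remaining 6148 genes did not pass. The higher genes moved further: 1295 of them differed at least 2-fold and 324 at least 4-fold, against 520 and 33 of the lower genes. The median log2 difference was 1.23 among the higher genes, -0.85 among the lower genes and 0.03 over all genes tested. All called genes had both Tdc2 libraries on the same side of R57C10. Over all tested genes 1423 (14.8%) had the Tdc2 libraries on both sides of R57C10, and such genes are unlikely to pass the test. The filter on low values was uneven between the groups. The 200 genes that reached 1 FPKM in both Tdc2 libraries and in no other tagged-nuclei library were tested, and could hardly come out lower. The 75 genes that reached it in R57C10 alone could not be tested. Counts of list members given next are to be read against the shares of 20.6% and 15.2%, which carry the same tilt.

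The balance of the calls depended on scaling. Higher genes made up 57.6% of calls on the values as deposited, 44.0% after median centring, which shifted all differences by -0.15 on the log2 scale, and 45.3% after quantile normalization. After median centring 18.6% of genes were higher and 23.7% lower. Within the later date tag, that is Tdc2 b against R57C10 with Tdc2 a left out and the spread taken from the OK107 pair, 2662 genes (28.4%) were higher and 2360 (25.1%) lower. Without Tdc2 b 2912 genes (31%) were higher and 2790 (29.7%) lower. Without OK107 a the counts were 1417 (15%) and 719 (7.63%), and without OK107 b they were 1422 (15.1%) and 735 (7.82%). The counts of list members without 1 library share these shifts and are given where they moved by over 1.5 times.

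**Figure D1:**
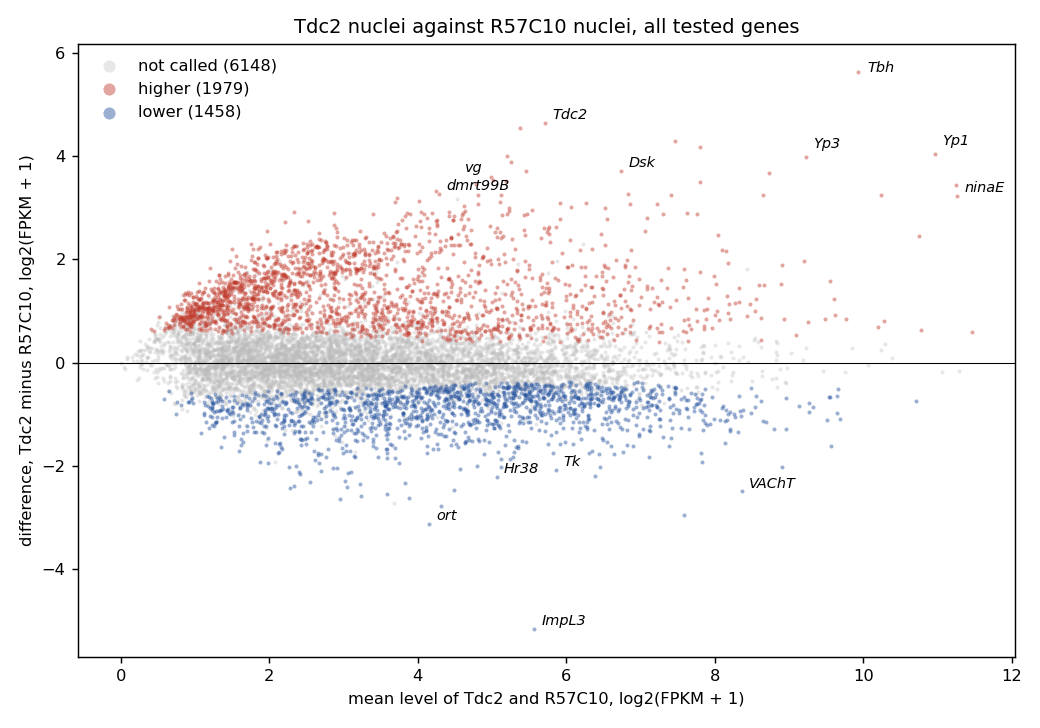
Each point is 1 of the 9585 tested genes. The horizontal axis is the mean of the Tdc2 and R57C10 levels and the vertical axis is Tdc2 minus R57C10, both as log2(FPKM + 1). Red points are the 1979 genes that were higher, blue points the 1458 that were lower and grey points the 6148 that did not pass. Tbh is the highest point at 5.64 and ImpL3 the lowest at -5.16.

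Markers of cells that are not central neurons were higher in the Tdc2 nuclei as well. Of 34 photoreceptor and phototransduction genes 24 were higher and 3 lower, with a median log2 difference of 1.98, and 5 of 33 still tested were lower without Tdc2 a or Tdc2 b. The summed level of that list was 11871 and 10205 FPKM in Tdc2 a and b, 4070 FPKM in R57C10, 5042 and 5226 FPKM in OK107 and 7726 FPKM in whole brain. The calcium sensor gene Cam and the G-protein subunit gene Ggamma30A, active in many neurons, gave most of the whole-brain sum, at 4632 and 1710 FPKM there. The major opsin gene ninaE made up a large part of the Tdc2 sums, at 4830 and 4054 FPKM against 469 FPKM in R57C10 and 189 FPKM in whole brain. For the 21 fat body genes, of which 15 were tested, 11 were higher and none lower. Only 12 of them were still tested without Tdc2 a and 11 without Tdc2 b. The rest met the filter on low values only with the help of a Tdc2 library. Their sum was 6870 and 6174 FPKM in Tdc2, 575 FPKM in R57C10 and 4925 FPKM in whole brain, most of it from 3 yolk protein genes. Single members differed more than the sum: Tsf1, the transferrin gene, stood at 84.0 and 79.1 FPKM in Tdc2 and 231 FPKM in whole brain, and Lsp2, a larval serum protein gene, at 1.57 and 5.03 FPKM and 40.8 FPKM.

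Glial genes were higher in 13 of 18 tested and lower in 2, with a median difference of 1.66, and 1 was lower without OK107 a or OK107 b. With all libraries the 2 lower genes were Nrx-IV and drpr. The transcription factor gene repo, which defines most glia, stood at 11.7 and 11.0 FPKM in Tdc2, 1.57 FPKM in R57C10 and 21.3 FPKM in whole brain. Eaat1, a glutamate transporter gene in this list, had no value in OK107 a and was not tested. It stood at 39.3 and 61.9 FPKM in Tdc2, below the 67.4 FPKM of R57C10, and at 596 FPKM in whole brain. The glial sum was 834 and 987 FPKM in Tdc2, 424 FPKM in R57C10 and 4667 FPKM in whole brain, so Tdc2 lay between R57C10 and whole brain. OK107 was above R57C10 too, at 660 and 678 FPKM. Hemocyte and basement membrane genes were higher in 10 of 12 tested and lower in none, with sums of 150 and 169 FPKM in Tdc2 and 95.8 FPKM in R57C10. For these genes OK107 held 116 and 120 FPKM and whole brain 307 FPKM, above either Tdc2 library. Muscle genes were higher in 12 of 24 tested and lower in 1, and here the Tdc2 libraries were unequal. In OK107 the muscle genes summed to 471 and 478 FPKM, about as much as in Tdc2 a. The muscle sum was 477 FPKM in Tdc2 a, 980 FPKM in Tdc2 b and 275 FPKM in R57C10, and 20 of the 22 members still tested were higher without Tdc2 a. The 1 muscle gene that was lower, Mef2, is also a Kenyon cell gene, and 2 were lower without Tdc2 a or Tdc2 b. None of ninaE, repo, Hml, Mhc and Yp1, a defining gene of each of these 5 lists, was at 0 in any of the 3 libraries. In a bulk library, more nuclei of a type and more RNA per nucleus cannot be told apart. How far these other cell types enter the gene differences given next was not tested.

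**Figure D2:**
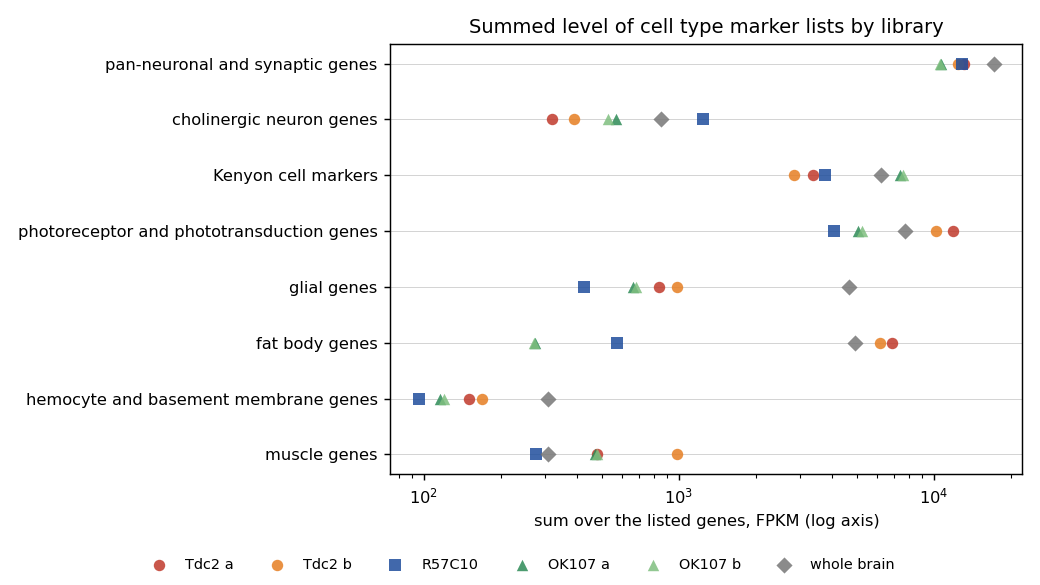
The horizontal axis is the FPKM summed over the members of a marker list that have a value in all 6 libraries, on a log axis, and each symbol is 1 library. Fat body genes sum to 6870 and 6174 FPKM in the Tdc2 libraries and 575 FPKM in R57C10, while cholinergic genes sum to 318 and 388 FPKM in Tdc2 and 1245 FPKM in R57C10. The pan-neuronal sum of R57C10 lies between those of the 2 Tdc2 libraries.

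The 15 genes with the largest rises, among those with at least 10 FPKM, ranged from 3.27 to 5.64 in log2 difference (SE 0.11 to 0.33, adjusted p from 0.00093 to 0.0034 with limma). In 12 of them both Tdc2 libraries were above all other libraries. Tbh led, Tdc2 came next, and the rest fell into several kinds. CG15909, a gene without a name or known role here, stood at 293 and 377 FPKM against 15.9 FPKM in R57C10 and at most 11.0 FPKM in OK107 and whole brain. Dsk, which encodes the sulfakinin peptides related to cholecystokinin, stood at 185 and 210 FPKM against 14.01 FPKM. For vg, the wing selector gene vestigial, the levels were 62.4 and 52.3 FPKM against 3.82 FPKM, and for dmrt99B, a doublesex-related transcription factor gene, 43.7 and 25.2 FPKM against 2.54 FPKM. CG15909, vg and dmrt99B were thus at low levels in whole brain, which held 7.84, 4.03 and 2.43 FPKM.

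Several of the other large rises belong to the marker groups described above. Yp1, Yp2 and Yp3, the yolk protein genes of fat body and ovary, stood at 4104 and 3428, 818 and 760, and 1122 and 1131 FPKM in Tdc2, against 227, 61.0 and 70.4 FPKM in R57C10. Whole brain held 2113, 780 and 955 FPKM of them, and no OK107 library exceeded 23.7 FPKM. The eye genes retinin, a lens protein gene, Rh4, an ultraviolet opsin gene, and inaF-B, a gene of the phototransduction channel complex, were in the 15 too. Rh4 stood at 87.5 and 53.9 FPKM against 3.69 FPKM in R57C10 and 0.625 FPKM in whole brain, while the other eye genes were also low in whole brain, at 4.82 FPKM for retinin and 6.59 FPKM for inaF-B. The OK107 libraries held 214 and 263 FPKM of retinin, between R57C10 at 22.4 FPKM and Tdc2 at 465 and 383 FPKM. Cyp4g1, a cytochrome P450 gene of oenocytes that serves hydrocarbon synthesis, stood at 97.7 and 59.99 FPKM against 2.29 FPKM. MtnA, a metallothionein gene, and CG6910, now named Miox, a myo-inositol oxygenase gene, were higher in whole brain than in either Tdc2 library. MtnA stood at 94.7 and 66.8 FPKM in Tdc2, 5.13 FPKM in R57C10 and 297 FPKM in whole brain.

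The 15 largest falls ranged from -2.05 to -5.16 in log2 difference (SE 0.12 to 0.34, adjusted p from 0.00077 to 0.011 with limma), and in 10 of them both Tdc2 libraries lay below all other libraries. ImpL3, the lactate dehydrogenase gene now named Ldh, stood at 1.62 and 1.54 FPKM in Tdc2 against 91.4 FPKM in R57C10. OK107 held 158 and 152 FPKM of it and whole brain 3.26 FPKM, so the Tdc2 level was near that of whole brain. The histamine-gated chloride channel gene ort, active in targets of photoreceptors, stood at 2.50 and 2.81 FPKM against 30.8 FPKM. Rh7, an opsin gene, stood at 5.23 and 6.59 FPKM against 36.8 FPKM, whereas the opsin genes ninaE, Rh2, Rh3, Rh4, Rh5 and Rh6 were higher. VAChT, the vesicular acetylcholine transporter gene, stood at 85.5 and 113 FPKM against 559 FPKM. Hr38, a nuclear receptor gene induced by neuronal activity, stood at 9.60 and 12.3 FPKM against 53.9 FPKM. Tk, the tachykinin gene, stood at 23.6 and 19.3 FPKM against 93.4 FPKM, close to the 18.5 and 18.6 FPKM of OK107.

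The remaining large falls were of mixed function. CG13636, now named sosie, stood at 45.3 and 40.9 FPKM in Tdc2 against 341 FPKM in R57C10, and OK107 was lower still at 25.3 and 23.8 FPKM. CG14010, now named DIP-eta, a cell surface partner of the Dpr proteins, stood at 2.04 and 3.00 FPKM against 19.5 FPKM. Both dl, the NF-kappaB factor Dorsal, and cv-2, a BMP-binding protein gene, were as high in OK107 as in R57C10 and low in Tdc2 and whole brain. dl stood at 7.38 and 8.96 FPKM in Tdc2 against 37.4 FPKM in R57C10, and cv-2 at 3.50 and 4.72 FPKM against 33.8 FPKM. The list was completed by CG33477, CG17669 (Dnaaf3), CG2543 (Fpgs1), CG4726 (MFS3) and CG42463 (Sfp24Bd), each between 11.2 and 24.3 FPKM in R57C10 and between 1.04 and 3.51 FPKM in Tdc2. No gene was at 0.1 FPKM or less in R57C10 while reaching 5 FPKM in both Tdc2 libraries, and none did the reverse.

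**Figure D3:**
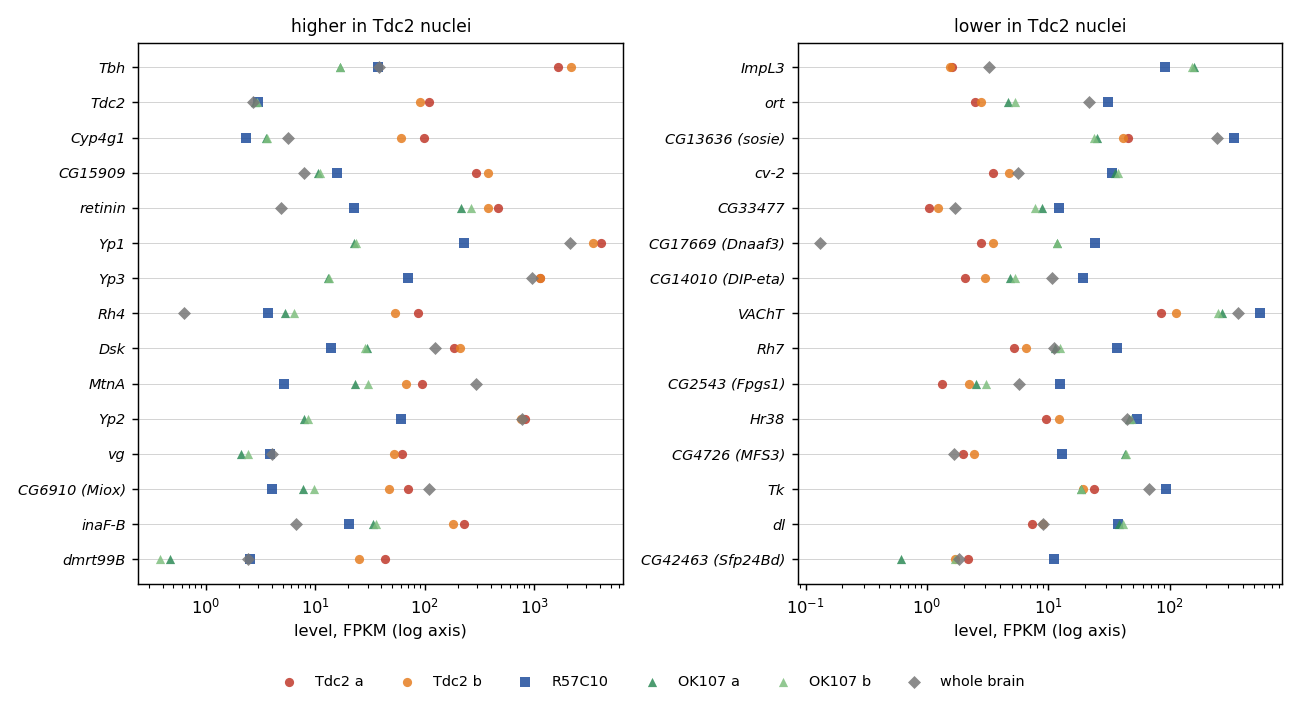
The horizontal axis is the level in FPKM on a log axis, and each symbol is 1 library. The left panel holds the 15 genes with the largest rises in Tdc2 against R57C10 and the right panel the 15 with the largest falls. Tbh lies at 1668 and 2159 FPKM in Tdc2 and 37.1 FPKM in R57C10, and ImpL3 at 1.62 and 1.54 FPKM against 91.4 FPKM.

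Genes of acetylcholine use were lower in Tdc2 nuclei, all 4 of 4. Besides VAChT, the choline acetyltransferase gene Cha stood at 33.4 and 42.2 FPKM against 106 FPKM in R57C10, with a log2 difference of -1.48 (SE 0.17, adjusted p = 0.0042 with limma). CG7708, the choline transporter gene now named ChT, stood at 32.5 and 41.5 FPKM against 124 FPKM. The acetylcholinesterase gene Ace stood at 167 and 191 FPKM against 456 FPKM. For Cha and Ace the OK107 libraries were near the Tdc2 libraries, with 41.5 and 40.9 FPKM of Cha.

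The glutamate and GABA genes went different ways. VGlut, the vesicular glutamate transporter gene, stood at 312 and 293 FPKM in Tdc2 against 168 FPKM in R57C10, higher by 0.84 (SE 0.12, adjusted p = 0.0072 with limma), though whole brain held 486 FPKM. VGAT, the vesicular GABA transporter gene, stood at 49.4 and 62.7 FPKM against 102 FPKM and was lower, and Gad1, the GABA-synthesizing enzyme gene, stood at 160 and 181 FPKM against 179 FPKM and did not pass. Gs2, a glutamine synthetase gene that marks glia, stood at 268 and 285 FPKM against 36.8 FPKM, and 1420 FPKM in whole brain. CG1732, the GABA transporter gene now named Gat, stood at 10.4 and 16.0 FPKM against 6.30 FPKM and passed, but not when OK107 a or OK107 b was left out.

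Genes of the other amines were mixed, with 3 of 9 higher and 2 lower. The 3 that were higher serve histamine use in photoreceptors: t, the tan hydrolase gene, at 25.0 and 22.3 FPKM against 3.03 FPKM, Hdc, the histidine decarboxylase gene, at 8.94 and 10.8 FPKM against 1.73 FPKM, and CG9317, the carcinine transporter gene now named CarT, at 3.93 and 5.76 FPKM against 1.01 FPKM. DAT, the dopamine transporter gene, was lower at 10.3 and 18.3 FPKM against 39.9 FPKM. Ddc, the dopa decarboxylase gene, was lower at 46.1 and 45.4 FPKM against 68.3 FPKM, a call lost without OK107 a or OK107 b. SerT, the serotonin transporter gene, stood at 5.04 and 7.93 FPKM against 10.8 FPKM, and ple, the tyrosine hydroxylase gene, at 18.9 and 37.7 FPKM against 16.0 FPKM, neither of which passed. Without Tdc2 a, 5 of these 9 genes were higher.

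All 6 genes of the biopterin cofactor list were higher in Tdc2 nuclei, with a median log2 difference of 2.06. The list covers the pathway to tetrahydrobiopterin, the cofactor of the aromatic amino acid hydroxylases, and to eye pigments, and the hydroxylase gene Hn. Dhpr, a pteridine reductase gene, stood at 50.2 and 37.7 FPKM against 6.50 FPKM. Pu, the GTP cyclohydrolase gene that opens the pathway, stood at 41.5 and 72.2 FPKM against 13.4 FPKM, and Hn, the phenylalanine hydroxylase gene, at 22.8 and 23.0 FPKM against 4.34 FPKM. The OK107 libraries were above R57C10 in this list too, with 43.9 and 44.8 FPKM of Pu. Sptr, the sepiapterin reductase gene, had the smallest difference, at 3.26 and 2.61 FPKM against 1.25 FPKM, and did not pass without OK107 a or OK107 b. Eye markers moved with this list as given above, and their part in it was not tested.

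Receptors for octopamine and tyramine were lower or did not pass. Of the 8 genes 4 were lower and none higher, with a median log2 difference of -0.73. The alpha-adrenergic-like receptor gene Oamb stood at 17.5 and 22.3 FPKM in Tdc2 against 44.0 FPKM in R57C10 and 74.4 and 75.1 FPKM in OK107. Octbeta2R stood at 41.8 and 44.0 FPKM against 80.5 FPKM, and Octbeta3R at 23.4 and 29.1 FPKM against 63.7 FPKM, both beta-adrenergic-like receptor genes. CG7431, the tyramine receptor gene now named TyrR, stood at 6.99 and 7.18 FPKM against 20.3 FPKM, a difference of -1.40 (SE 0.14, adjusted p = 0.0033 with limma). The only members above R57C10 were CG18208, now named Octalpha2R, at 49.6 and 62.7 FPKM against 37.1 FPKM, and TyrRII at 1.44 and 1.49 FPKM against 1.21 FPKM. Neither passed, and CG18208 passed as higher without Tdc2 a and without Tdc2 b.

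Among the 9 dopamine and serotonin receptor genes 4 were lower and none higher. DopEcR, a receptor for dopamine and ecdysteroids, stood at 267 and 311 FPKM against 708 FPKM, a log2 difference of -1.30 (SE 0.14, adjusted p = 0.0037 with limma). The serotonin receptor gene 5-HT1B stood at 15.5 and 16.5 FPKM against 32.1 FPKM. The number of lower genes in this list was 8 without Tdc2 b, 7 after median centring, and 2 without OK107 a or OK107 b.

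**Figure D4:**
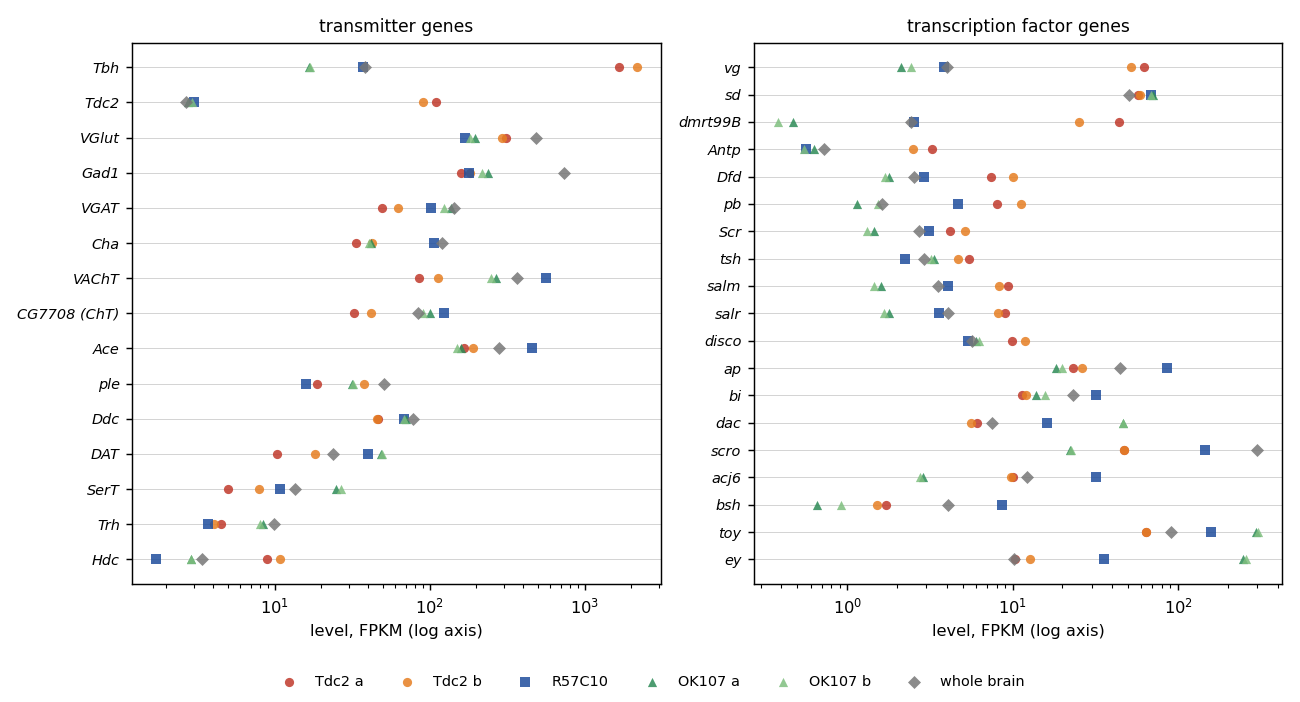
The horizontal axis is the level in FPKM on a log axis, and each symbol is 1 library. The left panel shows genes of transmitter synthesis and transport, and the right panel shows transcription factor genes. In Tdc2 the cholinergic gene VAChT lies at 85.5 and 113 FPKM against 559 FPKM in R57C10, and vg lies at 62.4 and 52.3 FPKM against 3.82 FPKM.

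Receptors for the fast transmitters were mostly lower in Tdc2 nuclei. Of 12 acetylcholine receptor genes 7 were lower and 1 higher, and of 16 tested GABA and glutamate receptor genes, out of 22 listed, 9 were lower and 1 higher. The nicotinic subunit gene nAcRbeta-64B stood at 415 and 512 FPKM against 990 FPKM, and gfA, which encodes another nicotinic subunit, at 164 and 196 FPKM against 391 FPKM. Rdl, the main GABA-A type receptor gene, stood at 393 and 443 FPKM against 815 FPKM, a log2 difference of -0.96 (SE 0.13, adjusted p = 0.0065 with limma). Metabotropic GABA receptor genes were lower as well, with GABA-B-R1 at 37.4 and 42.2 FPKM against 102 FPKM. GluClalpha, the glutamate-gated chloride channel gene, stood at 214 and 309 FPKM against 627 FPKM. The larger falls were in genes at low levels, such as ort, given above, and Grd, at 1.56 and 2.16 FPKM against 10.7 FPKM. The rises were in nAcRbeta-21C, at 1.97 and 1.52 FPKM against 0.247 FPKM, and HisCl1, a histamine-gated channel gene, at 8.31 and 8.03 FPKM against 4.38 FPKM.

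These counts moved with single libraries. Lower acetylcholine receptor genes numbered 11 without Tdc2 b and 4 without OK107 a or OK107 b, and nAcRbeta-21C fell under the filter on low values, and was not tested, without Tdc2 a or Tdc2 b. Lower GABA and glutamate receptor genes numbered 14 without Tdc2 b, and the rise of HisCl1 was lost without OK107 a or OK107 b.

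Voltage-gated and related ion channel genes had the same direction, with 20 of 27 lower and 3 higher and a median log2 difference of -0.78. para, the sodium channel gene, stood at 223 and 282 FPKM in Tdc2 against 547 FPKM in R57C10 and 393 and 391 FPKM in OK107. The calcium-activated potassium channel gene slo stood at 130 and 156 FPKM against 332 FPKM, a difference of -1.21 (SE 0.15, adjusted p = 0.0052 with limma). stj, an auxiliary calcium channel subunit gene, stood at 88.8 and 112 FPKM against 240 FPKM, and Ih, the hyperpolarization-activated channel gene, at 195 and 236 FPKM against 439 FPKM. The 3 rises were the inward rectifier potassium channel genes. Irk2 stood at 36.4 and 39.5 FPKM against 4.71 FPKM, Ir, now named Irk1, at 10.7 and 10.6 FPKM against 1.98 FPKM, and Irk3 at 5.01 and 4.71 FPKM against 0.746 FPKM. Whole brain held 144 FPKM of Irk2 and 41.0 FPKM of Irk3, above either Tdc2 library. OK107 held 12.7 and 12.4 FPKM of Ir, also above either Tdc2 library. Without OK107 a or OK107 b, 12 channel genes were lower.

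Synaptic genes were divided, with 10.0% of members higher and 30.0% lower. Of the 20 tested pan-neuronal and synaptic genes, from 22 listed, 2 were higher, 6 lower and 12 did not pass. unc-13, a vesicle priming gene, stood at 477 and 582 FPKM against 1118 FPKM, and Frq1, a frequenin calcium sensor gene, at 70.2 and 65.7 FPKM against 183 FPKM. cpx, the complexin gene, was higher at 3692 and 3134 FPKM against 2266 FPKM, as was Rbp9, an RNA-binding protein gene related to elav, at 261 and 237 FPKM against 158 FPKM. Both rises were lost without OK107 a or OK107 b, 4 rises were called without Tdc2 a and 7 without Tdc2 b.

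Neuropeptide genes moved both ways, with 9 of 34 tested higher and 11 lower, out of 42 listed, which is 26.5% and 32.4% of those tested. Besides Dsk, the rises included Ast-C, the C-type allatostatin gene, at 151 and 175 FPKM against 22.6 FPKM, a log2 difference of 2.79 (SE 0.14, adjusted p = 0.0014 with limma). hug, the precursor gene of pyrokinin peptides made by feeding-related neurons, stood at 170 and 116 FPKM against 38.1 FPKM and at most 9.96 FPKM in OK107. Ilp6, an insulin-like peptide gene active in fat body and glia, stood at 26.8 and 37.6 FPKM against 5.35 FPKM, and Nplp2 at 65.0 and 62.6 FPKM against 7.81 FPKM. Whole brain was above either Tdc2 library for Ast-C, at 179 FPKM, and for Ilp6, at 45.3 FPKM. OK107 held 44.2 and 46.3 FPKM of Ast-C, above R57C10 too. For hug and Nplp2 both Tdc2 libraries were above all other libraries. Falls besides Tk included sNPF, the short neuropeptide F gene abundant in Kenyon cells, at 87.0 and 63.7 FPKM against 184 FPKM. The insulin-like peptide genes Ilp1, Ilp2, Ilp3 and Ilp5 were lower too, with Ilp1 at 11.3 and 16.9 FPKM against 53.3 FPKM. Without Tdc2 b, 14 neuropeptide genes were higher.

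Receptors for neuropeptides were lower in 10 of 35 tested genes and higher in 5. Pdfr, the receptor gene for the clock peptide PDF, stood at 13.7 and 15.5 FPKM against 42.8 FPKM, a log2 difference of -1.49 (SE 0.14, adjusted p = 0.0030 with limma). The rises were Proc-R, SIFR, GRHR, Dh31-R1 and ETHR, which is 14.3% of those tested, while 28.6% were lower. SIFR, the receptor gene for SIFamide, stood at 40.6 and 47.4 FPKM against 20.5 FPKM and no more than 18.9 FPKM in OK107 and whole brain. ETHR, the ecdysis-triggering hormone receptor gene, stood at 13.1 and 16.8 FPKM against 6.29 FPKM. Lower members numbered 19 without Tdc2 b, 16 after median centring and 6 without OK107 a or OK107 b, and higher members numbered 9 without Tdc2 a. The rise of Dh31-R1 was lost without OK107 a or OK107 b.

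Peptide processing and dense-core vesicle genes were higher in 5 of 13 and lower in 3. The peptide-amidating enzyme genes Phm and Pal2 stood at 79.9 and 79.0 FPKM against 46.9 FPKM and at 801 and 747 FPKM against 447 FPKM. 7B2, a chaperone of the prohormone convertase, stood at 447 and 451 FPKM against 240 FPKM, and IA-2, a dense-core vesicle membrane protein gene, at 1647 and 1513 FPKM against 906 FPKM. OK107 was above R57C10 as well for Phm, at 86.3 and 90.0 FPKM, and for 7B2, at 413 and 455 FPKM. The synaptotagmin genes parted, Sytbeta being higher at 54.4 and 56.4 FPKM against 23.7 FPKM and Sytalpha lower at 37.6 and 38.6 FPKM against 83.9 FPKM. The convertase gene amon itself stood at 108 and 121 FPKM against 169 FPKM and was lower. Lower members numbered 5 without Tdc2 b and 1 without OK107 a or OK107 b.

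Of 7 tested genes in the list of Hox genes, which set position along the body, and their cofactors, 4 were higher in Tdc2 nuclei and none lower. Dfd, the selector of posterior head segments, stood at 7.41 and 10.1 FPKM against 2.89 FPKM in R57C10 and 1.78 and 1.70 FPKM in OK107. pb, the mouthpart selector, stood at 8.04 and 11.3 FPKM against 4.66 FPKM, and Antp, a thoracic selector, at 3.27 and 2.48 FPKM against 0.565 FPKM. tsh, a trunk patterning gene, stood at 5.48 and 4.64 FPKM against 2.22 FPKM. Scr, the selector between Dfd and Antp, stood at 4.20 and 5.18 FPKM against 3.11 FPKM and did not pass. Both Tdc2 libraries were above all other libraries in each of these 5 genes. The calls of pb and tsh were lost without OK107 a or OK107 b. Antp, at 0.630 and 0.548 FPKM in OK107, met the filter on low values only through the Tdc2 libraries. It could thus hardly have come out lower, and it was not tested without Tdc2 a or Tdc2 b. The cofactor genes hth, at 211 and 210 FPKM against 175 FPKM, and exd, at 36.9 and 31.0 FPKM against 36.7 FPKM, did not pass.

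Of 13 appendage and wing selector genes 6 were higher and 3 lower. sd, which encodes the DNA-binding partner of the Vestigial protein, stood at 57.5 and 59.0 FPKM in Tdc2 against 68.3 FPKM in R57C10 and did not pass, whereas vg itself rose by 3.59 (SE 0.18, adjusted p = 0.0014 with limma). The spalt genes salm and salr, zinc finger factor genes, stood at 9.41 and 8.29 FPKM against 4.04 FPKM and at 8.94 and 8.12 FPKM against 3.57 FPKM. The zinc finger gene disco stood at 9.96 and 11.96 FPKM against 5.39 FPKM. The falls were ap, at 23.3 and 26.3 FPKM against 85.8 FPKM, bi, at 11.4 and 11.99 FPKM against 31.8 FPKM, and dac, at 6.05 and 5.62 FPKM against 16.1 FPKM. These 3 factor genes are active in optic lobe neurons among others, and dac also in Kenyon cells.

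The wider list of neuronal identity factors, with 55 of 63 tested, had 22 lower and 13 higher, which is 40.0% and 23.6% of those tested. scro, a homeobox gene, stood at 47.0 FPKM in both Tdc2 libraries against 145 FPKM in R57C10 and 299 FPKM in whole brain. acj6, a POU factor gene of olfactory and visual neurons, stood at 10.1 and 9.74 FPKM against 31.9 FPKM, and bsh, a homeobox gene of lamina and medulla neurons, at 1.70 and 1.51 FPKM against 8.64 FPKM. toy and ey, the Pax6 genes strong in Kenyon cells, stood at 63.7 and 64.3 FPKM against 159 FPKM and at 10.4 and 12.8 FPKM against 35.9 FPKM. Among the rises, retn, an ARID factor gene, stood at 8.35 and 10.8 FPKM against 1.58 FPKM, and no more than 2.83 FPKM in the other libraries. Fer2, a bHLH factor gene, stood at 31.8 and 20.3 FPKM against 4.35 FPKM. Other rises in that list were repo, a glial gene, and eya and so, which are also eye genes.

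Kenyon cell markers were lower in 14 of 23 and higher in 2, with a median of -0.74. The adenylyl cyclase gene rut stood at 48.8 and 53.4 FPKM in Tdc2 against 104 FPKM in R57C10 and 247 and 236 FPKM in OK107. CG10251, the vesicular transporter gene now named prt, stood at 4.42 FPKM in both Tdc2 libraries against 10.8 FPKM in R57C10 and 54.5 and 59.4 FPKM in OK107. Octbeta2R, chinmo and rn were among the lower members, but OK107 too was below R57C10 in them. OK107 held 36.6 and 37.7 FPKM of Octbeta2R against 80.5 FPKM in R57C10, and 68.9 and 73.0 FPKM of chinmo against 108 FPKM. The exception with the clearest rise was Imp, an RNA-binding protein gene, at 60.5 and 59.6 FPKM against 27.3 FPKM. Without Tdc2 b, 4 markers were higher, and 1 without OK107 a or OK107 b.

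Axon guidance and cell recognition genes were lower in 29 of 54 tested and higher in 4, with a median log2 difference of -0.51. Dscam2, an immunoglobulin-family recognition gene, stood at 86.7 and 93.2 FPKM against 249 FPKM, a difference of -1.46 (SE 0.12, adjusted p = 0.0023 with limma), and Dscam3 at 6.33 and 7.67 FPKM against 25.8 FPKM. Guidance receptor genes fell as well, with plexB at 70.4 and 69.5 FPKM against 150 FPKM and lea, now named robo2, at 4.18 and 4.60 FPKM against 14.6 FPKM. The recognition gene dpr6 stood at 27.5 and 31.5 FPKM against 79.2 FPKM. Cad87A, a cadherin gene, rose and stood at 50.2 and 57.1 FPKM against 20.8 FPKM and no more than 19.0 FPKM in the other libraries. Without OK107 a or OK107 b, 17 of 53 still tested were lower and 2 higher.

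Genes induced by activity or stress were lower in 8 of 12 and higher in 2. Besides Hr38 and ImpL3, puc, a phosphatase gene that answers JNK signalling, stood at 35.01 and 35.7 FPKM against 121 FPKM in R57C10, 105 and 99.9 FPKM in OK107 and 34.1 FPKM in whole brain. Arc1, a capsid-forming gene induced by activity, stood at 43.1 and 56.1 FPKM against 165 FPKM, and its neighbour gene Arc2 at 4.06 and 3.91 FPKM against 13.2 FPKM. kay, the Fos gene, stood at 23.1 and 23.7 FPKM against 41.7 FPKM. The rises were Thor, the translation repressor 4E-BP gene, at 56.2 and 58.9 FPKM against 9.91 FPKM, and CrebA, a factor of secretory cells, at 12.3 and 13.4 FPKM against 4.07 FPKM. OK107 held as much Thor as Tdc2, at 59.5 and 66.3 FPKM.

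Heat shock and chaperone genes moved both ways, 6 higher and 6 lower of 19 tested. Hsp23, a small heat shock gene, stood at 61.3 and 38.7 FPKM against 4.23 FPKM. Hsp22, another small one, stood at 4.60 and 3.80 FPKM against 15.4 FPKM and 74.4 and 84.7 FPKM in OK107. Hsp83, the Hsp90 gene, stood at 223 and 233 FPKM against 108 FPKM. The Hsp70B copies were lower, with Hsp70Bc at 46.1 and 32.2 FPKM against 94.5 FPKM, but they are nearly identical in sequence and their separate values are uncertain.

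Clock genes were higher in 7 of 14 and lower in 1, that being Pdfr. tim stood at 68.8 and 86.4 FPKM against 22.6 FPKM in R57C10, a log2 difference of 1.72 (SE 0.17, adjusted p = 0.0031 with limma), and Clk at 7.48 and 8.89 FPKM against 1.90 FPKM. vri, whose protein represses Clk, stood at 37.8 and 36.7 FPKM against 12.7 FPKM. OK107 was also above R57C10 in all 3, with 55.9 and 56.8 FPKM of tim. Higher members numbered 3 after median centring and 3 without OK107 a or OK107 b, and lower members 2 without Tdc2 a. Photoreceptors and glia also run clocks, the hour of collection was not given in the sources used here, and the part of either was not tested.

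Ribosomal protein genes were higher almost throughout, 79 of 86 tested, and 1 was lower. The median log2 difference was 1.46, with 1.36 in Tdc2 a and 1.55 in Tdc2 b. RpS2 stood at 462 and 430 FPKM in Tdc2 against 97.9 FPKM in R57C10, 173 and 163 FPKM in OK107 and 244 FPKM in whole brain. RpLP0 stood at 112 and 109 FPKM against 20.3 FPKM, a difference of 2.39 (SE 0.12, adjusted p = 0.0014 with limma). The sum over 93 genes was 14696 and 16009 FPKM in Tdc2, 5428 FPKM in R57C10 and 15538 FPKM in whole brain, so the Tdc2 sums lay near whole brain, with OK107 at 6793 and 7571 FPKM. The gene that was lower, RpS10a, is one of a pair of related copies, and its call was lost without OK107 a or OK107 b.

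**Figure D5:**
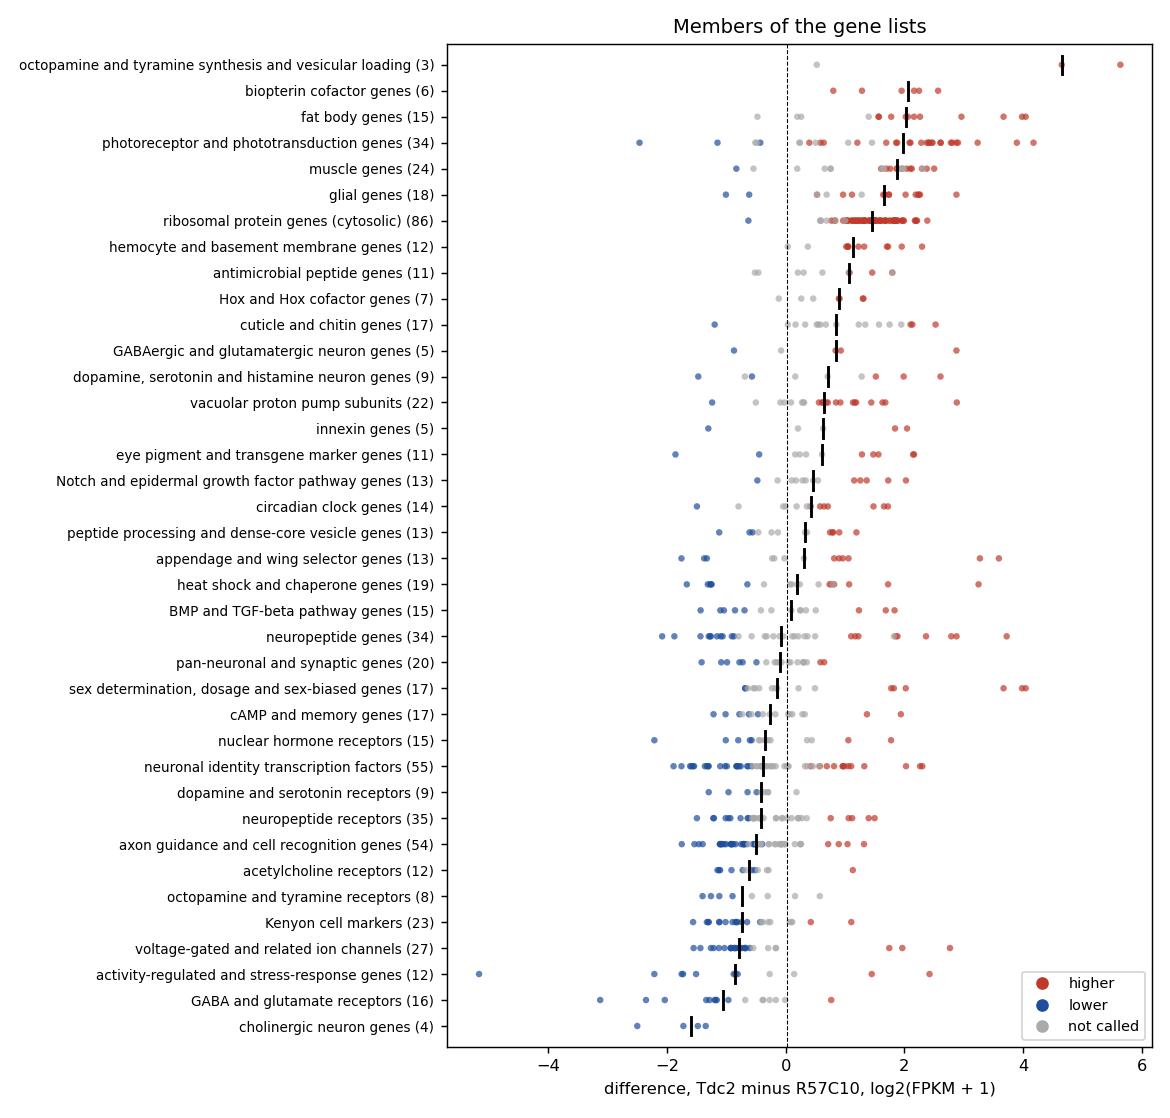
Each row is a gene list with the number of tested members in brackets, each point is a member and the horizontal axis is Tdc2 minus R57C10 on the log2(FPKM + 1) scale. Red points were higher, blue points lower and grey points did not pass, and the black tick is the median, which is 1.46 for ribosomal protein genes and -1.60 for cholinergic neuron genes. Over all tested genes the median was 0.03.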

How the data were processed

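Nuclear RNA-seq values were taken from the deposited gene table. The authors' Cuffdiff run gave FPKM per gene, per the file headers, with NA for genes whose Cuffdiff status was other than OK. CASAVA 1.8, TopHat 1.4.0, Cuffdiff 1.3.0, bedtools 2.15 and the genome build dm3 are named per the submitters' processing notes. Of 10 FPKM columns 6 were used; the other 4 repeat them with 0 differing values. The 92 spike-in rows were dropped. The columns carry no replicate numbers, so letters a and b only name libraries. Strand use was not given, so overlapping genes and near-identical copies are uncertain. Depth is unknown beyond the relative values given. Symbols are as deposited, and 15421 genes were matched to current RefSeq names. No coordinates or sequences were used.

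Differences on the log2(FPKM + 1) scale, where those of low genes come out too small, were fitted with limma 3.58.1 (R 4.3.3), using its trend and robust options. The fit held the 5 tagged-nuclei libraries with group as the only term and 2 residual degrees of freedom. Genes needed at least 1 FPKM in at least 2 libraries, and 655 genes with NA in a fitted library were left out. P-values were adjusted by Benjamini-Hochberg over all genes tested, and a gene passed under 0.05. The scripts were tested on simulated data. The design allowed for counts or FPKM, and FPKM was found.

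Named genes are the 15 largest differences each way among genes that passed, had both Tdc2 libraries on 1 side of R57C10 and a group mean of at least 10 FPKM (genes with only a CG or CR number only among the 5 largest). Named too are up to 6 members per list with the smallest p, all members of lists of up to 10, genes that check the labels, and others chosen after their values were seen. The comparison and the 39 gene lists were chosen with earlier results of these data known. Lists are described by counts and medians, without a test. Sums are over members with a value in all 6 libraries. Alternatives were other scalings, filters, pseudocounts, fits and left-out libraries.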

Additional observations from a re-analysis of the deposited data

How the results depend on the processing

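No gene named by the rule reversed direction under the 16 alternatives where it passed in either fit. Reversals of genes that passed in neither fit were not counted. Gad1 was such a gene, at -0.08 in the main fit and 0.01 for Tdc2 b minus R57C10. The alternatives are not independent checks, and many of the genes were picked for large differences in the same data. The date tag term is set by the Tdc2 pair, so that fit again compares Tdc2 b with R57C10. Whole brain as a further group of 1 library adds no residual degree of freedom. Of 3725 comparisons of 236 genes with an alternative, 3509 kept the side of the threshold. Among the 30 genes with the largest differences, 26 kept side and direction throughout. The other 4, Rh4, dmrt99B, CG2543 and CG42463, missed the threshold without a filter on low values. Without that filter, 854 genes were higher and 641 lower. The count of lower genes was 707 with only the Tdc2 and R57C10 libraries, 2272 after median centring and 2328 when a date tag term was added. Leaving out 1 library gave 1417 to 2912 higher genes and 719 to 2790 lower genes. Each of these fits has 1 residual degree of freedom, which comes from the Tdc2 pair at the low ends and from the closer OK107 pair at the high ends. No paired analysis was possible because the columns carry no replicate numbers and R57C10 has 1 library. The lone R57C10 library limits all results, since a deviation in it enters every difference.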

Other observations

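Some further groups differed between Tdc2 and R57C10 nuclei. Vacuolar proton pump subunit genes were higher in 14 of 22 tested and lower in 1, led by Vha68-2 at 77.4 and 76.4 FPKM in Tdc2 against 9.56 FPKM in R57C10 and 108 FPKM in whole brain; 9 were higher without OK107 a or OK107 b, and 2 lower without Tdc2 a or Tdc2 b. Gap junction genes parted. The innexin genes ogre and inx2, both strong in glia, were higher, with ogre at 43.3 and 49.2 FPKM against 10.4 FPKM and 232 FPKM in whole brain. The neuronal innexin gene shakB was lower at 75.3 and 82.9 FPKM against 196 FPKM. In the list of 5 tested, 4 innexin genes were higher without Tdc2 a.

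Among 15 BMP and TGF-beta pathway genes 3 ligand genes were higher and 5 genes were lower. The ligand gene daw stood at 14.1 and 13.5 FPKM against 3.14 FPKM, while the receptor gene put stood at 24.3 and 27.5 FPKM against 54.2 FPKM. Without Tdc2 a or Tdc2 b, 6 of these genes were higher. In the Notch and epidermal growth factor pathways 5 of 13 tested genes were higher and 1 lower, with Egfr at 9.18 and 13.7 FPKM against 2.00 FPKM; 8 were higher without Tdc2 a, and the fall of spi was lost without OK107 a or OK107 b. Nuclear hormone receptor genes were lower in 5 of 15 and higher in 2, with EcR at 49.4 and 58.9 FPKM against 94.5 FPKM. Lower members numbered 8 without Tdc2 a, 9 without Tdc2 b and 2 without OK107 a or OK107 b.

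Genes of cAMP signalling and memory were lower in 5 of 17 tested and higher in 2. Among them for, a cGMP-dependent kinase gene, stood at 10.9 and 15.1 FPKM against 2.61 FPKM. Lower members numbered 8 without Tdc2 a, 10 without Tdc2 b and 2 without OK107 a or OK107 b, and higher members numbered 4 and 5 without Tdc2 a and Tdc2 b. Of 17 tested sex determination, dosage and sex-biased genes 6 were higher and 2 lower. Of the 6, 5 (Yp1, Yp2, Yp3, fit and to) are also in the fat body list, and the other is dsx at 14.3 and 13.95 FPKM against 3.27 FPKM. Lower members numbered 6 of 16 still tested without Tdc2 a or Tdc2 b and 0 without OK107 a or OK107 b. Of 11 tested antimicrobial peptide genes 4 were higher, all under 5 FPKM. Without Tdc2 b, 7 were still tested, of which 2 were higher and 1 lower, and AttA and Def, higher with all libraries, were not tested. Eye pigment and transgene marker genes were higher in 5 of 11 and lower in 2, with 1 lower without OK107 a or OK107 b. The yellow gene, y, was lower at 4.70 and 4.52 FPKM against 19.3 FPKM.

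Cuticle and chitin genes were unequal between the Tdc2 libraries. Of 17 tested, 3 were higher and 1 lower, but 15 were higher without Tdc2 a and 6 were higher and 2 lower without Tdc2 b. The median log2 difference from R57C10 was 0.10 in Tdc2 a and 1.87 in Tdc2 b. Acp1, an adult cuticle protein gene, stood at 7.41 FPKM in Tdc2 a, 53.0 FPKM in Tdc2 b, 13.8 FPKM in R57C10 and 311 and 366 FPKM in OK107. Tdc2 a shares its date tag with OK107, and Tdc2 b shares its own with R57C10. What sets the Tdc2 libraries apart in this list was not tested. Of the 37 mitochondrially encoded genes listed, 2 tRNA genes were tested and neither passed; 1 was higher without Tdc2 a, and without Tdc2 b, where only 1 was still tested.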
